A study of Mus musculus with 2 samples.

Results

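Inflammatory cytokines, the inducible cyclooxygenase Ptgs2, the inflammasome sensor Nlrp3 and the serum amyloid gene Saa3 were compared between mouse bone marrow cells grown with M-CSF (M) and with both M-CSF and RANKL (MR). The 10 genes, Il1a, Il1b, Il1rn, Il6, Il10, Il18, Tnf, Ptgs2, Nlrp3 and Saa3, were chosen by name, with earlier results of these data known. Of these genes, 8 had an assembled locus among the 14782 genes that had one in at least 1 library. M-CSF maintains cells of the monocyte and macrophage lineage through its receptor Csf1r, and RANKL is the cytokine that turns these cells into osteoclasts, the multinucleated cells that resorb bone. Both cultures were wild type (WT) and had bone marrow cells as their source. The labels describe 2 days with M-CSF followed by 2 days in which RANKL was added to M-CSF, whereas the culture method of the study has RANKL present for 3 days. The age and sex of the mice, their number per culture and the day on which each culture was harvested are not given in the sources used here. Each condition is 1 library from 1 culture, so that no difference below has a replicate check or a p-value.

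The genes belong to several arms of the inflammatory response of macrophages. Il1a and Il1b encode interleukin-1 alpha and beta, which act on the same receptor, Il1r1, and Il1rn encodes the antagonist that occupies this receptor without signalling. Il18 encodes a cytokine of the same family, which, like interleukin-1 beta, is made as a precursor and cut by caspase-1 in the inflammasome, a complex that Nlrp3 assembles with the adaptor Pycard. Tnf and Il6 encode cytokines that promote inflammation and bone loss, Il10 encodes a cytokine that restrains macrophages, Ptgs2 makes the precursor of the prostaglandins, and Saa3 encodes a serum amyloid A protein that macrophages and fat cells make in the acute phase. Many of these genes are transcribed through NF-kappaB, AP-1 and C/EBP factors, and RANKL signals through NF-kappaB, AP-1 and NFAT.

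The start-site windows of the genes were read from RefSeq (GRCm38.p6), as the 250 bases before each annotated start site on the strand of the gene, and 9 of the 10 genes, all but Il10, had at least 1 window, 12 windows in all. Those of Saa3 (chr7:46715677-46715926, minus strand) and Tnf (chr17:35202008-35202257, minus strand) are shown because these genes had the largest differences in level. Those of Il6 (chr5:30012864-30013113, plus strand) and Ptgs2 (chr1:150099781-150100030, plus strand) are shown because neither gene had a locus in either culture. The upstream window (chr2:24336610-24336859, plus strand) and the first downstream window (chr2:24345041-24345290, plus strand) of Il1rn are shown because the 5′ end of its locus differed between the cultures. Capitals mark matches to any of 5 motifs on either strand, which were NF-kappaB (GGG and CC with 5 bases between them), AP-1 (TGANTCA), the cyclic AMP response element (TGACGTCA), C/EBP (TTGCNNAA) and NFAT (GGAAAA).
Saa3: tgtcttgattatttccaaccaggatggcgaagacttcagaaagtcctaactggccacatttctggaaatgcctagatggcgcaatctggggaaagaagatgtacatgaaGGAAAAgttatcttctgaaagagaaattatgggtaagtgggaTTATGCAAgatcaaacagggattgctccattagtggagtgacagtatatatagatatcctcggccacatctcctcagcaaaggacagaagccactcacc
Tnf: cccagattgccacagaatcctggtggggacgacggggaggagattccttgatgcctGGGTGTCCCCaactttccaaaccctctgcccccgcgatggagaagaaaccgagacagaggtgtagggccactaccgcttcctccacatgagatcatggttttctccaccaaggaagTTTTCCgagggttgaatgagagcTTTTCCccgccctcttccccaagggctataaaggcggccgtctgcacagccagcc
Il6: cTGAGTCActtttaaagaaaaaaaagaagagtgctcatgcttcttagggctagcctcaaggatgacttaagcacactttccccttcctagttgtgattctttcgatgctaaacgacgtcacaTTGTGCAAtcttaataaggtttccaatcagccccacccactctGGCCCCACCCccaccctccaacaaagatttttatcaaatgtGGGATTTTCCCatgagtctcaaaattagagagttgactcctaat
Ptgs2: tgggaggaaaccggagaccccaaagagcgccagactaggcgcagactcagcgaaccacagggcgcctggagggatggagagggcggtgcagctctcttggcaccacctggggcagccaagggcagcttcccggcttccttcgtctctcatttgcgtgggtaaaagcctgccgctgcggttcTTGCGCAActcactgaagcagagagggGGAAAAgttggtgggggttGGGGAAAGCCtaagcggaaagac
Il1rn upstream: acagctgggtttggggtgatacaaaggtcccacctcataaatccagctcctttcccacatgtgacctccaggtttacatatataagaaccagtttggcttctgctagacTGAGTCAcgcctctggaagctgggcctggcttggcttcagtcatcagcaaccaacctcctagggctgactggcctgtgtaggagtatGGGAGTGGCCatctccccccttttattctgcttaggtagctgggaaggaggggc
Il1rn downstream: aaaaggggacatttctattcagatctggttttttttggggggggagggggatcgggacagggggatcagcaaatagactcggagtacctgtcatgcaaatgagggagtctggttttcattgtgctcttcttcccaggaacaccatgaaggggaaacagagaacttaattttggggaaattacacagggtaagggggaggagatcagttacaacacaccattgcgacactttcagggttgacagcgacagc

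The NFAT letters, which are short, were found in 7 of the 12 windows, in 7 of the 9 genes, and in 20.43% of the 32851 windows in the table. The NF-kappaB letters were found in 6 of the 12 windows, in Il1rn (2 windows), Nlrp3, Tnf, Il6 and Ptgs2, and in 45.8% of all windows. The C/EBP letters were found in 3 of the 12 windows (Il6, Ptgs2 and Saa3) and in 9.56% of all windows, and the AP-1 letters in 3 of the 12 (Il1a, Il1rn and Il6) and in 6.75% of all. The cyclic AMP response element was found in 0 of the 12 windows and in 1.55% of all windows. In Il6 a pair of NF-kappaB matches overlap each other and an NFAT match, between bases -44 and -34 from the start site, so that these capitals form 1 run. The downstream window of Il1rn shown held no match to any of the 5. A further downstream window of Il1rn (chr2:24345121-24345370, plus strand), which overlaps it and is not shown, held 1 NF-kappaB match and 1 NFAT match, which overlap each other. These matches describe letters in a window, and no binding was measured here.

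The level of a gene was the TPM summed over its assembled loci, an abundance per length of transcript, scaled to the same total in both libraries, on which genes can be compared within a library. The aligned bases were 3.63 Gb in M and 2.98 Gb in MR, read from the ratio of coverage to FPKM. Differences are in log2(TPM + 1), MR minus M, and a difference past 1 in size was counted as called. Counting intervals (95%) were approximated from FPKM, transcript length and 300 aligned bases per read pair (exact Poisson for a level, Clopper-Pearson for a ratio), and they cover counting error only. In total 13802 genes, those whose TPM reached 1 in M or MR, were compared.

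The osteoclast markers placed the cultures as labelled. All 9 osteoclast markers were called higher in MR, and their summed TPM was 126.2 in M and 24993 in MR. Among the 9 monocyte and macrophage markers 5 were called lower in MR, 0 were called higher, and the summed TPM was 21560 in M and 7978 in MR. Of all genes compared, 13.4% were called lower and 21.2% higher. Most of the summed TPM came from Lyz2, with 16035 in M and 4535 in MR, whose locus also covers another gene. The Fc receptor gene Fcgr1 had a TPM of 1158 in M and of 60.5 in MR, and Adgre1, which encodes F4/80, had 680.9 and 147.9, while Csf1r had 697.2 and 871.9. In bulk RNA, fewer macrophages and less of a transcript per macrophage cannot be told apart for any gene below. The marker lists of the other cell types had lower sums than the macrophage list in both cultures. The 11 neutrophil markers summed to 1451 in M and 989.8 in MR, with 1 called lower and 0 higher. Summed TPM was between 3.35 and 42.0 in M and between 2.11 and 51.4 in MR for the B cell, T and NK cell, dendritic cell, mast cell and basophil, erythroid, stromal and endothelial lists. The T cell receptor genes Cd3e, Cd3d and Cd3g had no locus in either library. How far a change in the number of macrophages, or of the neutrophils that the cultures still hold, enters the differences below was not tested.

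All 8 genes with a locus were lower in MR than in M, a direction that 40.6% of all genes compared shared. Of these 8 genes, 6 were called lower in MR (Saa3, Tnf, Nlrp3, Il18, Il1a and Il1b), against 13.4% of all genes compared, and 0 were called higher, against 21.2% of all genes. Il1a and Il1b are weak calls, since they reached a TPM of 1 in M alone and rest on few read pairs. Neither was called in FPKM or in coverage per aligned Gb. The median difference of the 8 genes in log2(TPM + 1) was -1.72, whereas that of all genes was 0.20. Because the set was chosen with earlier results of these data known, these shares and medians describe it and are no test of it. The sum of the TPM of the 8 genes was 485.7 in M and 138.7 in MR. Il1rn had the highest TPM of the set in both cultures, and Saa3, which was next to it in M, was among the lowest in MR. Il6 and Ptgs2 had no assembled locus on either strand in either library.

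**Figure D1:**
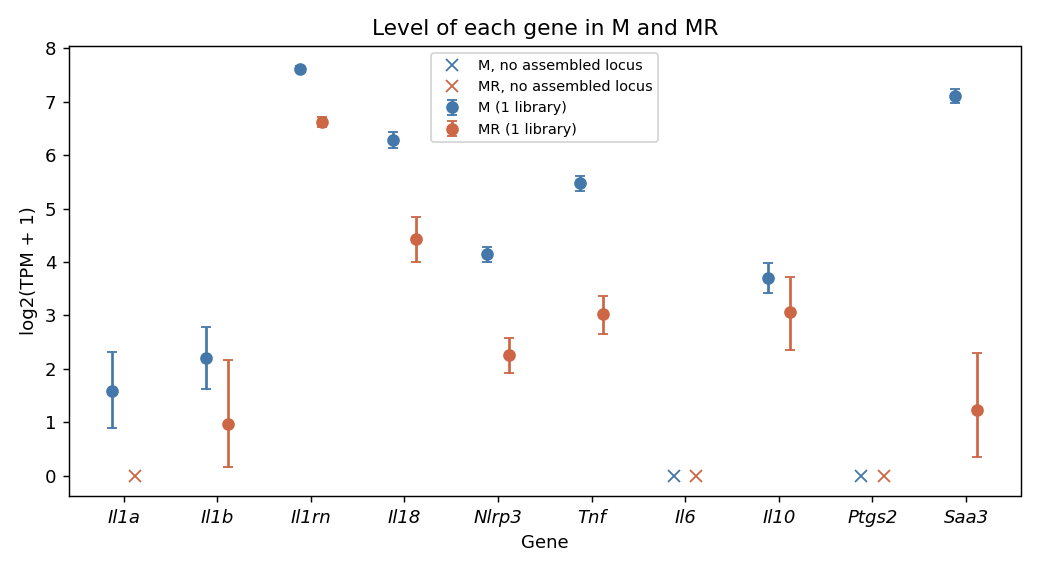
Level of each of the 10 genes in M (blue) and MR (orange) as log2(TPM + 1), 1 library each, with 95% counting intervals as bars and a cross where no locus was assembled. Saa3 had a TPM of 137.1 in M and of 1.34 in MR, and Il6 and Ptgs2 have crosses in both libraries.

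Among the ligands of the interleukin-1 receptor, levels were low in M and lower in MR. Il1a (chr2:129299610-129309972, minus strand, 7 exons) had 1 locus in M with a TPM of 2.01 (interval 0.869 to 3.97), which rests on about 8 read pairs and covers 33.8% of the exon bases of the gene. It had no locus in MR, and its difference of -1.59 in log2(TPM + 1) therefore depends on the value added to the TPM. A locus on the opposite strand, given to the gene model Gm14023, overlapped Il1a in both libraries, with a TPM of 2.10 in M and of 0.754 and 1.82 in the 2 loci of MR. Whether the library kit marked strand is not stated, so that reads of Il1a and of this gene may not be told apart.

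Il1b lies 54597 bases from Il1a (chr2:129364570-129371139, minus strand, 7 exons). In M it was in 2 loci with a TPM of 1.09 and 2.53, a sum of 3.61 (interval 2.07 to 5.87), and in MR it was in 1 locus with a TPM of 0.967 (interval 0.117 to 3.49). The difference in log2(TPM + 1) was -1.23, with a counting interval of -2.06 to 0.15 that includes 0, based on some 16 pairs of reads for M and 2 for MR. Summing over the parts of a gene that was assembled in pieces counts the gene more than once. When the loci were averaged by their exon bases instead, Il1b had a TPM of 2.09 in M and its difference was -0.65, which is not past the threshold.

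Il1rn, which encodes the receptor antagonist (chr2:24336853-24351494, plus strand), had a TPM of 194.0 in M (interval 186.8 to 201.5) and 97.5 in MR (interval 91.7 to 103.5). In both cultures the antagonist was therefore far above the 2 ligands on the TPM scale. The TPM in M was 1.99 times that in MR, and the difference of -0.99 in log2(TPM + 1), with a counting interval of -1.09 to -0.88, was just short of the threshold. In the listed coverage, a read depth per base, the difference was larger: 242.0 in M and 44.7 in MR, or 66.7 and 15.0 per aligned Gb, a difference of -2.08 in log2(coverage per Gb + 1). The FPKM of these loci would give a coverage of 325.9 for M and 129.2 for MR, above the coverage listed.

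The Il1rn loci also had different ends. In M the locus extended from 24341704 to 24351485, and its 5′ end lay in an intron, 4851 bases inside the gene and upstream of the start of the transcript Il1rn-202 at 24345288. In MR it extended from 24336851 to 24350924. Its 5′ end there was 2 bases before the annotated start of Il1rn-204, the transcript that spans the gene, and its 3′ end was 12 bases inside the end of Il1rn-201. Both loci hold the downstream windows, and the MR locus alone reaches the upstream window, in which it starts. The loci held 53.6% of the exon bases of the gene in M and 89.7% in MR. Only the start and end of a locus are listed, without values by exon or isoform, so that how many reads lay at either start was not measured.

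**Figure D2:**
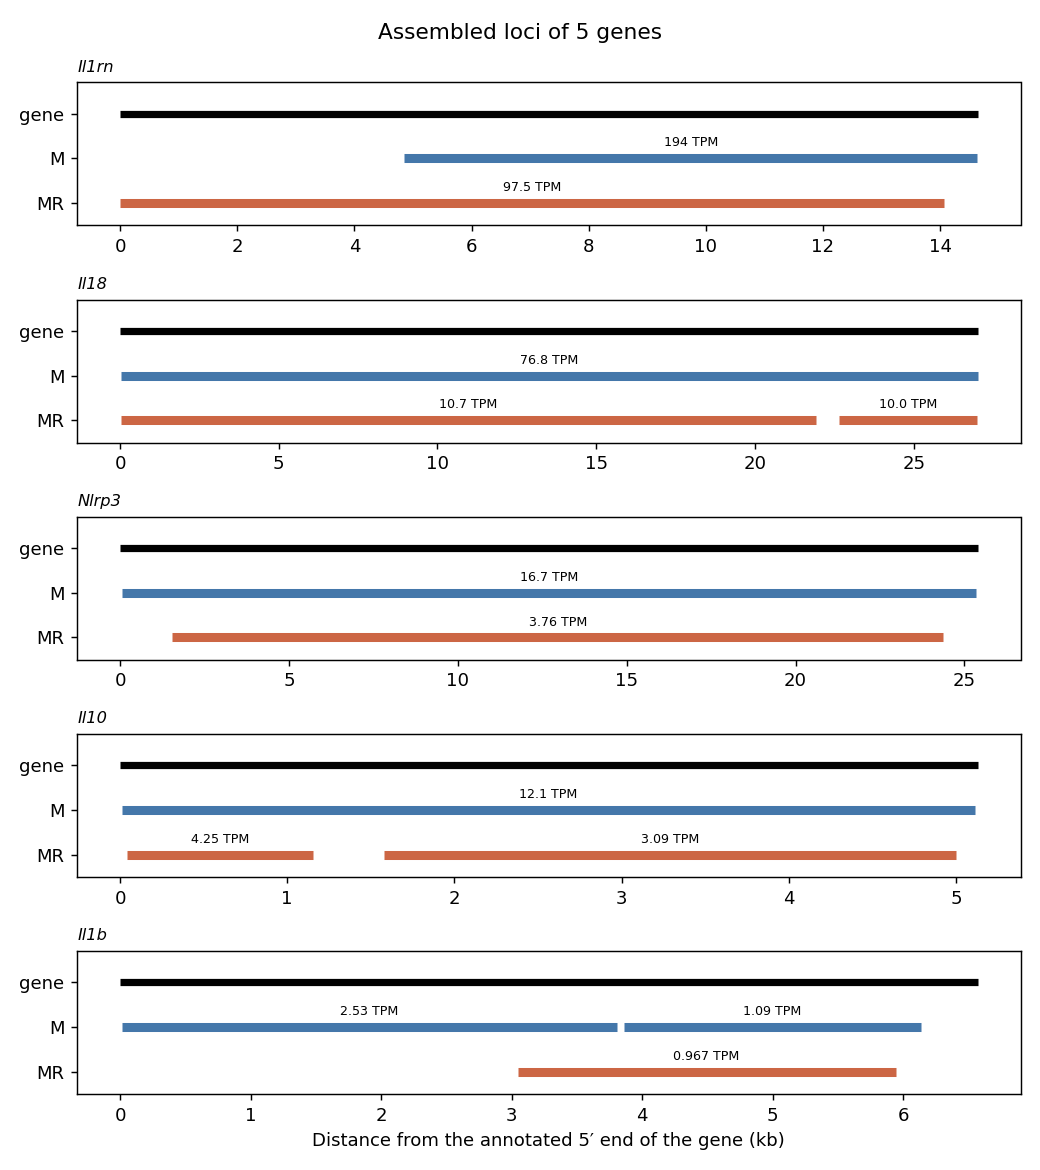
Extent of the assembled loci of Il1rn, Il18, Nlrp3, Il10 and Il1b in M (blue) and MR (orange) below the annotated gene (black), by distance from the annotated 5′ end in kb, with the TPM of each locus above it. The Il1rn locus of M starts 4851 bases inside the gene, and Il18 and Il10 are in 2 loci in MR and Il1b in 2 loci in M.

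Il18, the other interleukin-1 family cytokine with a clear level, was lower in MR. The gene (chr9:50554827-50581840, plus strand, 6 exons in its main transcript) had a TPM of 76.8 in M (interval 69.1 to 85.0), in 1 locus that covers 96.2% of its exon bases. In MR it had a TPM of 20.7 (interval 15.1 to 27.7), the sum of 2 loci with 10.7 and 9.997. The difference in log2(TPM + 1) was -1.84, with a counting interval of -2.30 to -1.41, or -2.79 when the 2 loci of MR were averaged by exon bases to a TPM of 10.3. In coverage per aligned Gb it was -1.21, so that the size of the difference is uncertain and its direction was the same in each of these. The first bases of Il18 overlap a locus of the opposite strand given to Bco2, with a TPM of 16.3 in M and of 2.55 in MR.

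In the list of interleukin-1 family ligands and decoys, 7 of 13 genes were compared, with a median of -0.99. Called lower were 3 of them (Il1a, Il1b and Il18), against 13.4% of all genes compared, and called higher 1, against 21.2%. These 3 all belong to the set. Of the 3 compared genes outside the set, 0 were called lower and 1 higher, with a median of -0.003. The decoy receptor gene Il1r2 had a TPM of 2.14 in M and of 2.13 in MR. Il18bp, which encodes the binding protein that neutralizes interleukin-18, lay inside the locus of another gene and was given no value. Of the receptors and signalling genes of interleukin-1 and interleukin-18, 15 of 17 were compared, with a median of 0.33. Here 2 were called higher, against 21.2% of all genes, and 1 lower, against 13.4%. Il1r1, 1 of those called higher, had no locus in M and a TPM of 1.79 in MR, and its difference was short of the threshold in coverage per Gb (0.84) and with its loci averaged by exon bases (0.94). Its accessory chain Il1rap had 4.98 in M and 3.69 in MR, and Il18r1 had no locus in either. Irak3, which encodes an inhibitor of this signal, was the 1 called lower, with a TPM of 22.3 in M and of 5.51 in MR (difference -1.84). Traf6, a ubiquitin ligase shared by the receptors of interleukin-1 and RANKL, had 12.3 in M and 32.7 in MR (difference 1.34). The adaptor gene Myd88 had a TPM of 128.3 in M and of 67.0 in MR (difference -0.93), and Tab1 and Tab2, partners of the kinase TAK1, had differences of 0.79 and 0.77, which are not past the threshold.

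Nlrp3 was lower in MR, while the other core parts of the inflammasome went in different directions. Nlrp3 (chr11:59541568-59566956, plus strand, 10 exons in Nlrp3-202) had a TPM of 16.7 in M (interval 15.0 to 18.5) and 3.76 in MR (interval 2.77 to 4.99). The difference in log2(TPM + 1) was -1.89, with a counting interval of -2.25 to -1.54, based on some 372 pairs of reads for M and 48 for MR. The locus covers 98.2% of the exon bases in M and 71.9% in MR, where its 5′ end lay 1549 bases inside the gene. Pycard, the adaptor, had a TPM of 87.5 in M and of 100.4 in MR, and Casp1, which encodes caspase-1, had 217.0 and 111.9 (difference -0.95). Gsdmd, which encodes the pore protein that caspase-1 cuts, was higher in MR with 126.5 in M and 259.1 in MR, a difference of 1.03 in log2(TPM + 1) and of 0.97 in coverage per aligned Gb, which is short of the threshold.

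In the whole list of inflammasome and pyroptosis genes, 23 of 24 were compared. Called lower were 6, against 13.4% of all genes compared, called higher 3, against 21.2%, and the median was -0.49. Without Nlrp3, 5 of 22 were called lower and the median was -0.40. In coverage per Gb 1 was called higher. P2rx7, the ATP-gated channel that triggers Nlrp3, had a TPM of 67.2 in M and of 14.7 in MR (difference -2.12). Gsdme, which encodes another gasdermin, had 18.8 and 5.29 (difference -1.65, or -2.56 with its loci averaged by exon bases), and Ninj1, which ruptures the membrane of dying cells, had 568.2 and 212.6 (difference -1.41). Naip5, a sensor of flagellin, had a difference of -1.26 in log2(TPM + 1) and of -0.92 in coverage per Gb. Mefv, which encodes the sensor pyrin, had a TPM of 4.92 in M and of 12.9 in MR, a difference of 1.23, or 0.61 in coverage per Gb.

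**Figure D3:**
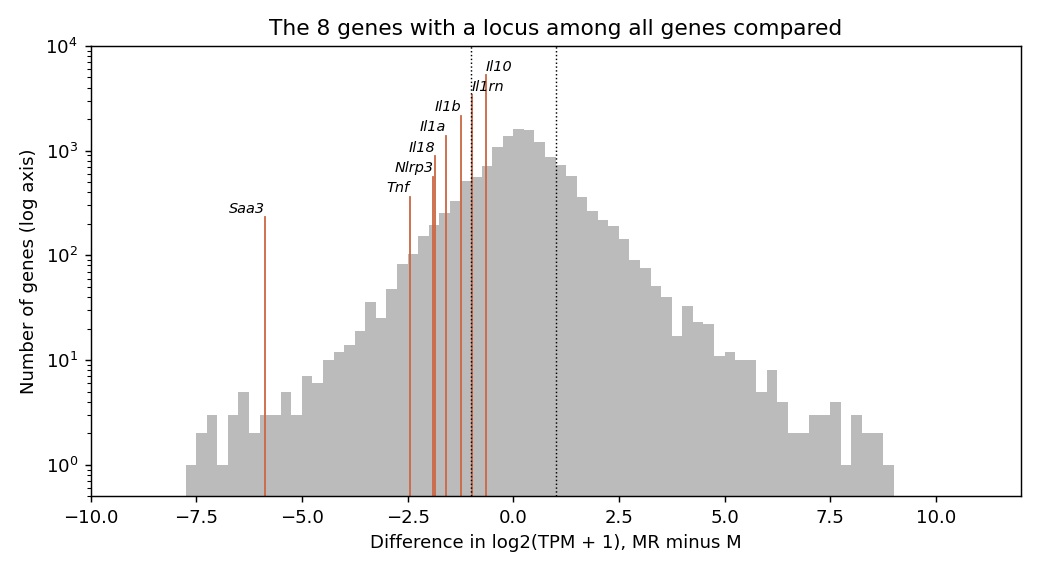
Number of genes (log axis) by the difference in log2(TPM + 1), MR minus M, for the 13802 genes compared, with lines at the 8 genes of the set and dotted lines at -1 and 1. All 8 lines are left of 0, and Saa3 at -5.88 is far in the left tail.

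Tnf was lower in MR, while the other genes of its pathway went in both directions. Tnf (chr17:35199381-35202007, minus strand, 4 exons) had a TPM of 43.4 in M (interval 39.2 to 47.9) and 7.10 in MR (interval 5.29 to 9.34). The TPM in M was 6.10 times that in MR, a difference of -2.45 in log2(TPM + 1) with a counting interval of -2.84 to -2.08, based on some 395 pairs of reads for M and 51 for MR. Only 2.25% of the genes compared had a lower value. The locus covers 99.2% of the exon bases in M and 98.5% in MR, and over all settings tried the difference lay between -2.62 and -2.34.

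All 24 genes of the TNF list were compared. Tnf itself was the only 1 called lower, 7 (against 21.2% of all genes) were called higher, and the median was -0.11. The number called higher was 3 with median-of-ratios scaling and 4 in FPKM, in coverage per Gb and with mitochondrial and the 20 most abundant genes left out, and 2 were called lower in these settings other than FPKM. Traf1, a receptor adaptor, had a TPM of 21.8 in M and of 148.1 in MR (difference 2.71). Tnfaip3, which encodes the NF-kappaB inhibitor A20, had 20.5 and 59.4 (difference 1.49), and Tnfaip2, a gene first found as a TNF target, had 134.0 and 294.6 (difference 1.13). Birc2 and Birc3, which encode the ubiquitin ligases cIAP1 and cIAP2, had differences of 1.08 and 1.10 in log2(TPM + 1), and that of Birc3 was 0.97 in coverage per Gb. The receptors had smaller differences, with a TPM of 168.9 in M and of 125.5 in MR for Tnfrsf1a and 173.7 and 105.6 for Tnfrsf1b. Adam17, the protease that releases TNF from the cell surface, had 132.9 and 79.6 (difference -0.73).

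Il6 was not assembled, and Il10 was at a low level in both cultures. Il6 (chr5:30013114-30019981, plus strand) had no locus in M or MR. A locus with too few reads to be assembled is not listed, and the level below which this happens is not known, although the lowest 5% of the listed loci had a TPM of up to 0.148 in M and 0.239 in MR. Of the interleukin-6 family and its receptors, 15 of 19 genes were compared, with 3 called higher (1 in FPKM and in coverage per Gb), 1 lower and a median of -0.23. The shares of all genes compared were 21.2% higher and 13.4% lower. Lif, a cytokine of this family, had no locus in M and a TPM of 16.8 in MR. Socs1, an inhibitor of cytokine signalling, had 18.5 in M and 6.42 in MR (difference -1.39). The interleukin-6 receptor gene Il6ra had a TPM of 83.1 in M and of 48.3 in MR (difference -0.77, or -1.05 with its loci averaged by exon bases), and the shared signalling chain Il6st had 25.5 and 27.2, with a difference of 0.09 in log2(TPM + 1) and of -0.05 in coverage per Gb. The kinase genes Jak2 and Jak1 had differences of -0.73 and -0.34.

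Il10 (chr1:131019845-131024974, plus strand, 5 exons) had a TPM of 12.1 in M (interval 9.66 to 14.9), in 1 locus. In MR it had a TPM of 7.34 (interval 4.11 to 12.1), the sum of 2 loci with 4.25 and 3.09. The difference in log2(TPM + 1) was -0.65, with a counting interval of -1.40 to 0.08 that includes 0. Averaged by exon bases, the loci of MR had a TPM of 3.35 and the difference was -1.59, which is past the threshold, so that the call on Il10 turned on how its pieces were joined. Some 87 pairs of reads for M and 15 for MR lay behind these values.

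Both chains of the interleukin-10 receptor were called lower in MR. Il10ra, the chain that binds the cytokine, had a TPM of 64.5 in M and of 13.7 in MR (difference -2.16). Il10rb had 447.4 and 135.6 (difference -1.71), but its locus also covers the gene model Gm21970, and in coverage per Gb its difference was -0.58. Of the interleukin-10 list, 8 of 12 genes were compared, with these 2 called lower (against 13.4% of all genes) and 1 higher (against 21.2%), and a median of -0.10. Without Il10, the median of the 7 others was 0.14. Sbno2, a target of interleukin-10 in macrophages, was the 1 called higher, with a TPM of 54.6 in M and of 127.4 in MR (difference 1.21), although in coverage per Gb its difference was 0.27. Bcl3 and Etv3, which encode regulators of transcription, had differences of 0.86 and -0.35.

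**Figure D4:**
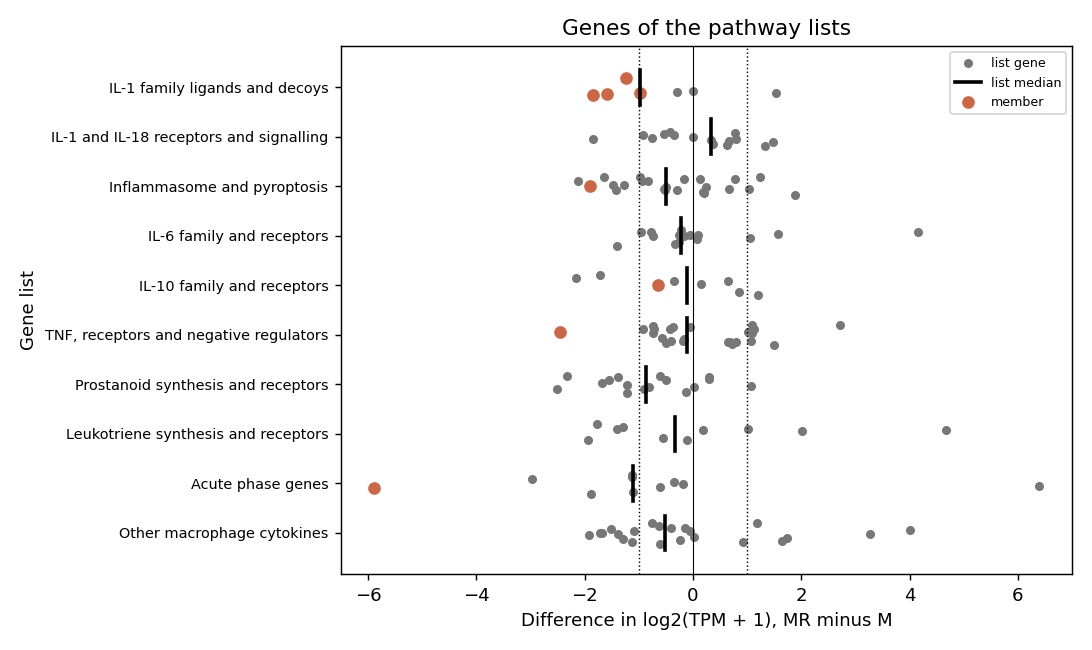
Difference in log2(TPM + 1), MR minus M, of each compared gene of 10 pathway lists, with the 8 genes of the set in orange, other list genes in grey, list medians as black bars and dotted lines at -1 and 1. Tnf at -2.45 is the single gene of its list left of -1, with 7 genes right of 1, a number that was 3 with median-of-ratios scaling.

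Ptgs2 (chr1:150100031-150108227, plus strand), the cyclooxygenase that inflammatory signals induce, had no locus in either library. Its constitutive relative Ptgs1 had a TPM of 3.60 in M and of 2.25 in MR (difference -0.50, or 0.09 with its loci averaged by exon bases, which turns the direction), and the prostaglandin E synthase gene Ptges had 1.11 and 1.57. Around these low levels, some other genes of the pathway were called lower in MR and others were not. In the prostanoid list 16 of 25 genes were compared, of which 7 were called lower and 1 higher (0 in FPKM and in coverage per Gb), with a median of -0.86. The 1 called higher was Ptges2, with a TPM of 14.7 in M and of 32.2 in MR (difference 1.08). The shares of all genes compared were 13.4% lower and 21.2% higher. Pla2g4a, which encodes the phospholipase that frees arachidonic acid, had a TPM of 23.0 in M and of 9.35 in MR (difference -1.21). Hpgds, the prostaglandin D synthase of blood cells, had 95.1 and 18.1 (difference -2.33). Ptger2, a receptor of prostaglandin E2, had 12.1 and 1.31 (difference -2.51), and Ptger4, another receptor of it, had 9.71 and 6.05 (difference -0.60, or -1.41 with its loci averaged by exon bases). The lysosomal phospholipase gene Pla2g15 had 133.2 and 44.8 (difference -1.55). The thromboxane synthase gene Tbxas1 had 65.8 and 27.8, a difference of -1.22 in log2(TPM + 1) and of -3.48 in log2(coverage per Gb + 1).

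Saa3 had the largest difference of the set. The gene (chr7:46711998-46715700, minus strand, 4 exons in Saa3-201) had a TPM of 137.1 in M (interval 124.4 to 150.8) and 1.34 in MR (interval 0.277 to 3.93). The TPM in M was 102.0 times that in MR, a difference of -5.88 in log2(TPM + 1) with a counting interval of -6.76 to -4.80. Only 3 read pairs or so lay behind the level in MR, against about 426 in M, so that the ratio is known less well than the high level in M. Its rank was 22 from the lowest of the 13802 genes compared, and 0.152% of them were lower. The locus covers 99.7% of the exon bases in M and 97.8% in MR, the listed coverage was 230.3 and 1.78, and over all settings tried the difference lay between -6.57 and -5.33.

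The other serum amyloid genes gave no signal beside it, since Saa1, Saa2 and Saa4 had no locus in either library. The list of acute phase genes also holds receptor and transporter genes, such as Fpr1, Fpr2 and Slc11a1. In it 10 of 17 genes were compared, with 6 called lower (against 13.4% of all genes), 1 higher (against 21.2%) and a median of -1.11. Without Saa3, 5 of 9 were called lower, with a median of -1.10. These 5 were Fpr1, Fpr2, Hp, Slc11a1 and Hpx, and Hpx had a TPM of 1.19 in M and no locus in MR. Fpr2, a receptor that binds serum amyloid A among other ligands, had a TPM of 34.5 in M and of 3.51 in MR (difference -2.98), and Fpr1, a receptor of bacterial formyl peptides, had 10.1 and 2.03 (difference -1.88). Hp, which encodes haptoglobin, had 25.8 and 11.3 (difference -1.12), and the metal transporter gene Slc11a1 had 38.0 and 17.2 (difference -1.10). Lcn2, which encodes an iron-sequestering protein, had 76.8 and 49.8 (difference -0.62). Steap4, which encodes a metalloreductase, was the 1 called higher, with no locus in M and a TPM of 83.0 in MR. These genes are expressed by neutrophils as well as macrophages in several cases, and the neutrophil markers had a median of -0.47 in the same comparison, the part of which in these values was not tested.

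In order of TPM, the genes of M were Il1rn, Saa3, Il18, Tnf, Nlrp3, Il10, Il1b and Il1a, and of these neighbours only Il1b and Il1a had overlapping counting intervals. In MR the order was Il1rn, Il18, Il10, Tnf, Nlrp3, Saa3 and Il1b, although Il10 with its loci averaged by exon bases had a TPM of 3.35, below Tnf (7.10) and Nlrp3 (3.76). For the summed levels of MR, the intervals of Il10 and Tnf overlapped, as did those of Nlrp3 and Saa3 and those of Saa3 and Il1b.

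The 10 pathway lists together, each gene counted once and the genes of the set left out, had 142 compared genes, with a median of -0.27. Of these, 33 (23.2%) were called lower, against 13.4% of all genes compared, and 27 (19.0%) higher, against 21.2%. At a threshold of 2 there were 5 lower and 7 higher, with 549 and 984 over all genes. The lists, too, were chosen with earlier results of these data known, so that these shares describe them and are no test. Over all settings tried for them, none of the 8 genes with a locus changed sign. Those called lower with every setting at this threshold were Il18, Nlrp3, Tnf and Saa3. Il1a and Il1b were not called in FPKM or in coverage per aligned Gb, nor was Il1b where its loci were not summed. Il1rn was called in 4 settings that changed the scale (FPKM, median-of-ratios scaling, TPM without mitochondrial and the 20 most abundant genes, and coverage), and Il10 was called where its loci were not summed.

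**Figure D5:**
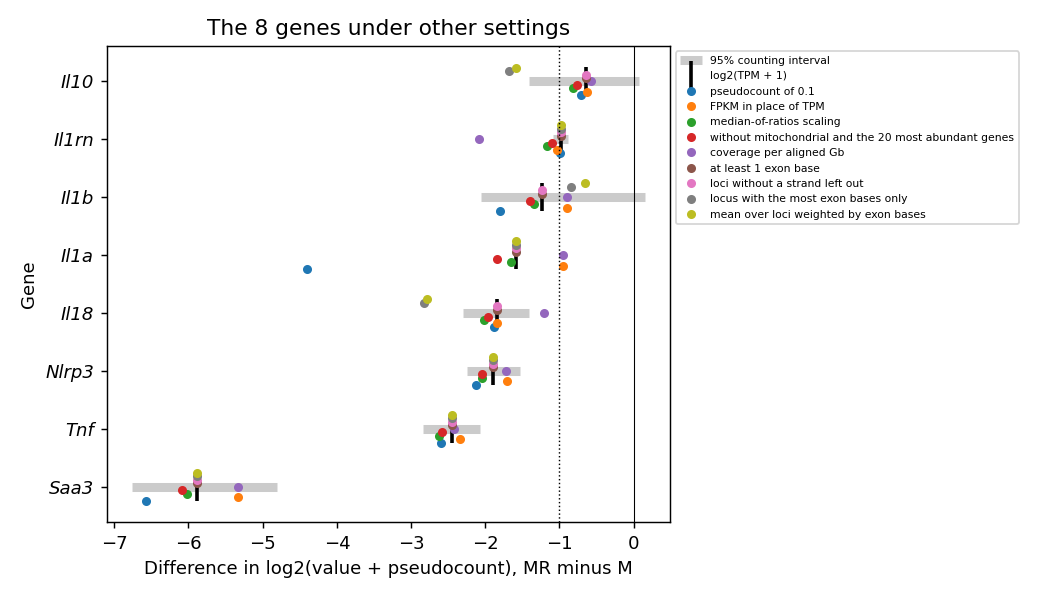
Difference in log2(value + pseudocount), MR minus M, of the 8 genes under each setting (points), with the value in log2(TPM + 1) as a black line, its 95% counting interval as a grey bar where both libraries had a locus, and a dotted line at -1. Every point is left of 0, those of Il18, Nlrp3, Tnf and Saa3 are all left of -1, and Il1rn reaches -2.08 in coverage per aligned Gb.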

How the data were processed

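RNA from 1 culture with M-CSF and 1 culture with M-CSF and RANKL was sequenced as 1 library each. The authors removed adaptors with Trim Galore, mapped the reads to mm10 (GRCm38) with HISAT2 and quantified them with StringTie on GENCODE vM27, and the submitters' processing notes also name FastQC and SAMtools. The deposited tables hold 3 values per entry, a coverage (read depth per base, a signal not scaled to depth), an FPKM and a TPM. The deposited TPM was handled as a score, because the authors' scaling makes the assembled loci alone sum to 1000000 and the entries with gene names add 87234 in M and 129264 in MR. The vM27 positions refer to another build (GRCm39), so that entries with gene names were not used. Of the assembled loci, 15665 of 19422 in M (95.4% of TPM) and 16523 of 19922 in MR (96.9%) were assigned to a gene of GENCODE vM21 by the number of exon bases they hold on its strand, with a minimum of 50. A gene inside the locus of another was given no value, and a locus that holds 50% of the exon bases of another coding gene was called shared. Values were compared as log2(TPM + 1) for genes whose TPM reached 1 in M or MR, with a call past 1 or -1. No test was possible with 1 library per condition. Aligned bases were read from the ratio of coverage to FPKM most frequent where FPKM exceeded 5 (41.0% of such entries in M, 42.9% in MR). Read pairs are not listed, and those given are approximate. The script was first checked with simulated data, in which 97.91% of 5000 loci were assigned to their own gene. Counted there only among genes with an unshared locus and a simulated level well above the TPM filter, 122 of 122 changed genes and 2 of 2941 unchanged genes were called. The changed genes all differed by the same large fold up or down, and no counting noise was simulated. Levels as low as those of Il1a and Il1b were therefore not covered. These counts describe the script, and the accuracy of the calls in M and MR was not tested.

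The genes and gene lists were chosen with earlier results of these data known. Named besides the set are at most 5 genes of each list with the largest differences at a TPM of at least 10 in a library, and the receptor and enzyme partners of the set. Saa4, Cd3e, Cd3d, Cd3g, Lyz2, Fcgr1, Adgre1 and Csf1r were added as markers or relatives after their values were seen. Hpx and Ptges2 were added in the same way, as called genes of their lists. Other settings were a pseudocount of 0.1, FPKM, scaling by the median of ratios (11580 genes), TPM without mitochondrial and the 20 most abundant genes, coverage per aligned Gb, a minimum of 1 exon base, loci without a strand left out, only the locus with the most exon bases, no filter, a TPM of at least 10, a threshold of 2, genes with an unshared locus in each library and, chosen after seeing the data, the mean over loci weighted by exon bases. Leaving out the filter could not change a count of calls, since a gene below a TPM of 1 in both libraries cannot differ by more than 1 in log2(TPM + 1). Scripts ran in Python 3.11.15 (matplotlib 3.10.9, numpy 2.4.6, scipy 1.17.1, pandas 2.3.3).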

Additional observations from a re-analysis of the deposited data

How the results depend on the processing

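No paired analysis was possible because each condition has 1 library, so that M and MR form at most 1 pair. Of 386 values computed under other settings 309 stayed within their limits, 77 moved and 0 reversed, and of the 77 that moved 56 were counts of single lists. A value within its limits could still lose its call, as those of Il1a (-0.95) and Il1b (-0.90) did in FPKM. These counts therefore do not measure how many calls held. For Il1a the difference was -4.40 with a pseudocount of 0.1, -1.65 with median-of-ratios scaling and -1.84 when mitochondrial and the 20 most abundant genes were left out. For Il1rn it was -1.17 with median-of-ratios scaling, -1.10 without those genes and -2.08 in coverage per aligned Gb. For Il18 it was -1.21 in coverage, -2.82 with only the locus of most exon bases and -2.79 with loci averaged by exon bases, and for Il10 it was -1.68 and -1.59 with the last 2 settings. The cause was not tested, except that these 2 settings do not add up the pieces of a gene, and 18.2% of the genes compared were in pieces in a library.

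Of the 8 genes, 5 were called lower in FPKM and in coverage, 7 with median-of-ratios scaling and without the most abundant genes, 4 of 6 at a TPM of at least 10 and 2 (Tnf and Saa3) at a threshold of 2. Of the other list genes, 14 rather than 27 were called higher in coverage per Gb, and at a threshold of 2 there were 5 lower and 7 higher. Over all genes the calls were 1848 lower and 2926 higher, 1032 and 1653 at a TPM of at least 10, 549 and 984 at a threshold of 2, and 1102 and 1791 among genes with an unshared locus in each library. Median-of-ratios scaling lowered the median of all genes by 0.17 and leaving out the most abundant genes lowered it by 0.11. The higher calls were 61.3% of all calls, and 53.3% with median-of-ratios scaling. Depth limits Il1a, Il1b, Il10 and the level of Saa3 in MR, which rest on few read pairs in at least 1 library.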

Other observations

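Among the genes of leukotriene synthesis and their receptors, 10 of 11 were compared, with 4 called lower in MR (against 13.4% of all genes), 3 higher (against 21.2%) and a median of -0.33. Alox5ap, which presents arachidonic acid to 5-lipoxygenase, had a TPM of 542.0 in M and of 157.8 in MR (difference -1.77 in log2(TPM + 1)). Cysltr1, a receptor of the cysteinyl leukotrienes, had 16.2 and 3.48 (difference -1.94). Ltc4s, the enzyme that makes leukotriene C4, went the other way with 2.45 and 12.9 (difference 2.01), and Ephx2, the soluble epoxide hydrolase, had no locus in M and a TPM of 24.5 in MR. Lta4h, the enzyme that makes leukotriene B4, had 34.5 and 31.7 (difference -0.12).

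Of 29 other cytokines and growth factors of macrophages, 22 were compared, with 8 called lower (5 in FPKM and in coverage per aligned Gb), 5 higher and a median of -0.51. The shares of all genes compared were 13.4% lower and 21.2% higher. Pdgfb, which encodes a platelet-derived growth factor chain, had a TPM of 10.6 in M and of 186.6 in MR (difference 4.01), and Pdgfa, the other chain, had 4.14 and 16.1 (difference 1.73). Mif, a cytokine that macrophages release, had 167.8 and 525.1 (difference 1.64). Ebi3, a subunit of interleukin-27 and interleukin-35, had 74.1 and 18.8 (difference -1.93), and Csf1, which encodes M-CSF itself, had 11.9 and 3.06 (difference -1.67). These values come from the same 2 libraries and have no replicate check.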
